A study of Rattus norvegicus with 8 samples.

Results

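The genes described are those that make, package, take up and break down γ-aminobutyric acid (GABA), set the chloride gradient its channels use, and form its metabotropic receptor, in the lumbar spinal cord of rats after chronic water avoidance (WA) stress. The members were 9 genes (Gad1, Gad2, Slc32a1, Slc6a11, Abat, Slc12a5, Slc12a2, Gabbr1 and Gabbr2), found by their symbol among the non-control probes of the array. They had 14 of the 30367 probes and 40 of the 58717 spots, and they are 9 of 26514 gene names. Male Wistar rats aged 12 weeks were compared in 2 groups of 4, with 1 array per rat: stressed rats, placed for 1 h a day on a platform surrounded by water on 10 days and killed 24 h after the last session, and control rats, which the labels call only control. The tissue was lumbar L6S1 cord pushed out with saline and freed of meninges, so each value averages all of its cell types, and fewer cells of a type and less RNA per cell cannot be told apart. The study asked which spinal transcripts differ in stressed rats, in a model of stress-induced visceral hyperalgesia.

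GABA is the main inhibitory transmitter of the cord together with glycine, and it is made from glutamate by the decarboxylases GAD67 (Gad1) and GAD65 (Gad2). It inhibits through chloride channels only while the chloride concentration of the neuron is low, which the potassium-chloride extruder KCC2 (Slc12a5) maintains against the sodium-potassium-chloride importer NKCC1 (Slc12a2), and loss of KCC2 in dorsal horn neurons is a known route to pain after nerve injury. A slower inhibition runs through the GABA-B receptor, an obligate dimer of the Gabbr1 and Gabbr2 products coupled to Gi/o proteins.

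The probes of a gene are described by where along the transcript they lie. Of the 9 genes, 4 (Gad1, Slc12a5, Slc12a2 and Gabbr1) had an upstream and a downstream probe on the same transcript, and the position of a probe is given as its distance in bases from the transcript's start in the files. The upstream probe of each pair, and the only Slc6a11 probe, which crosses an exon junction (60 bases of probe over 808 bases of genome), are shown because the 4 largest of the 14 differences were read from among them. Coordinates are given on the rat rn4 assembly, as in the array files, and the exon or UTR at each was not analysed here. The 60-base probes, 5′ to 3′ in the sense of the transcript, had at least 1 forward reading frame free of stop codons.
Gad1, position 853, chr3:52813028-52813087, plus strand: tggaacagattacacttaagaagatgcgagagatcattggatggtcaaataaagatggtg
Slc12a5, position 3287, chr3:156035392-156035451, plus strand: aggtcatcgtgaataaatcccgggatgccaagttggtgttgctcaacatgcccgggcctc
Slc12a2, position 3541, chr18:53736914-53736973, plus strand: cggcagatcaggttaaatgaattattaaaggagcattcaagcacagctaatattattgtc
Gabbr1, position 2857, chr20:1555345-1555404, minus strand: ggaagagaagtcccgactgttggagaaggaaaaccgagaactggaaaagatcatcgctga
Slc6a11, position 1716, chr4:150195271-150196078, plus strand: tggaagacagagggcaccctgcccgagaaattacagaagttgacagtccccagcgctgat

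All values below are log2 signals relative to the 75th percentile of the same array, so a value above 0 belongs to the brighter spots of the array. On the linear scale that percentile lay between 1751 and 2335 units, and 23005 to 24066 probes per array were well above background. Control replicate 2 stood apart from the other controls over the whole array. It lay with the stressed arrays on the first principal component (54.1% of the variance of the tested probes). For 1885 transcripts with tested probes at least 300 bases apart, the median of the 5′ minus the 3′ signal, centred over the arrays, was 0.22 in control replicate 2, -0.30, -0.30 and -0.18 in control replicates 1, 3 and 4, and 0.17, 0.15, 0.17 and 0.09 in stressed replicates 1 to 4. The results are therefore given with and without control replicate 2. All 8 arrays shared 1 slide on which each group filled its own row, so row and group cannot be told apart.

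None of the 9 genes differed between stressed and control rats at FDR <0.1. All 14 probes were well above background on all 8 arrays, none was saturated, and all were tested. By limma 0 of 14 were called at an adjusted p below 0.1, where 3.74% of the 23678 tested probes were called, and 0 of 14 reached an unadjusted p below 0.05, where 20.3% of all tested probes did. The groups overlapped at all 14 probes, whereas they did not overlap at 12.1% of tested probes. The difference was above 0 at 8 probes and below 0 at 6, with a median of 0.09 beside 0.06 over all tested probes, whose quartiles were -0.09 and 0.28. The exact permutation test over the 70 choices of 4 of 8 arrays, which cannot give a p below 0.0286, gave 0.0571 to 0.80.

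**Figure D1:**
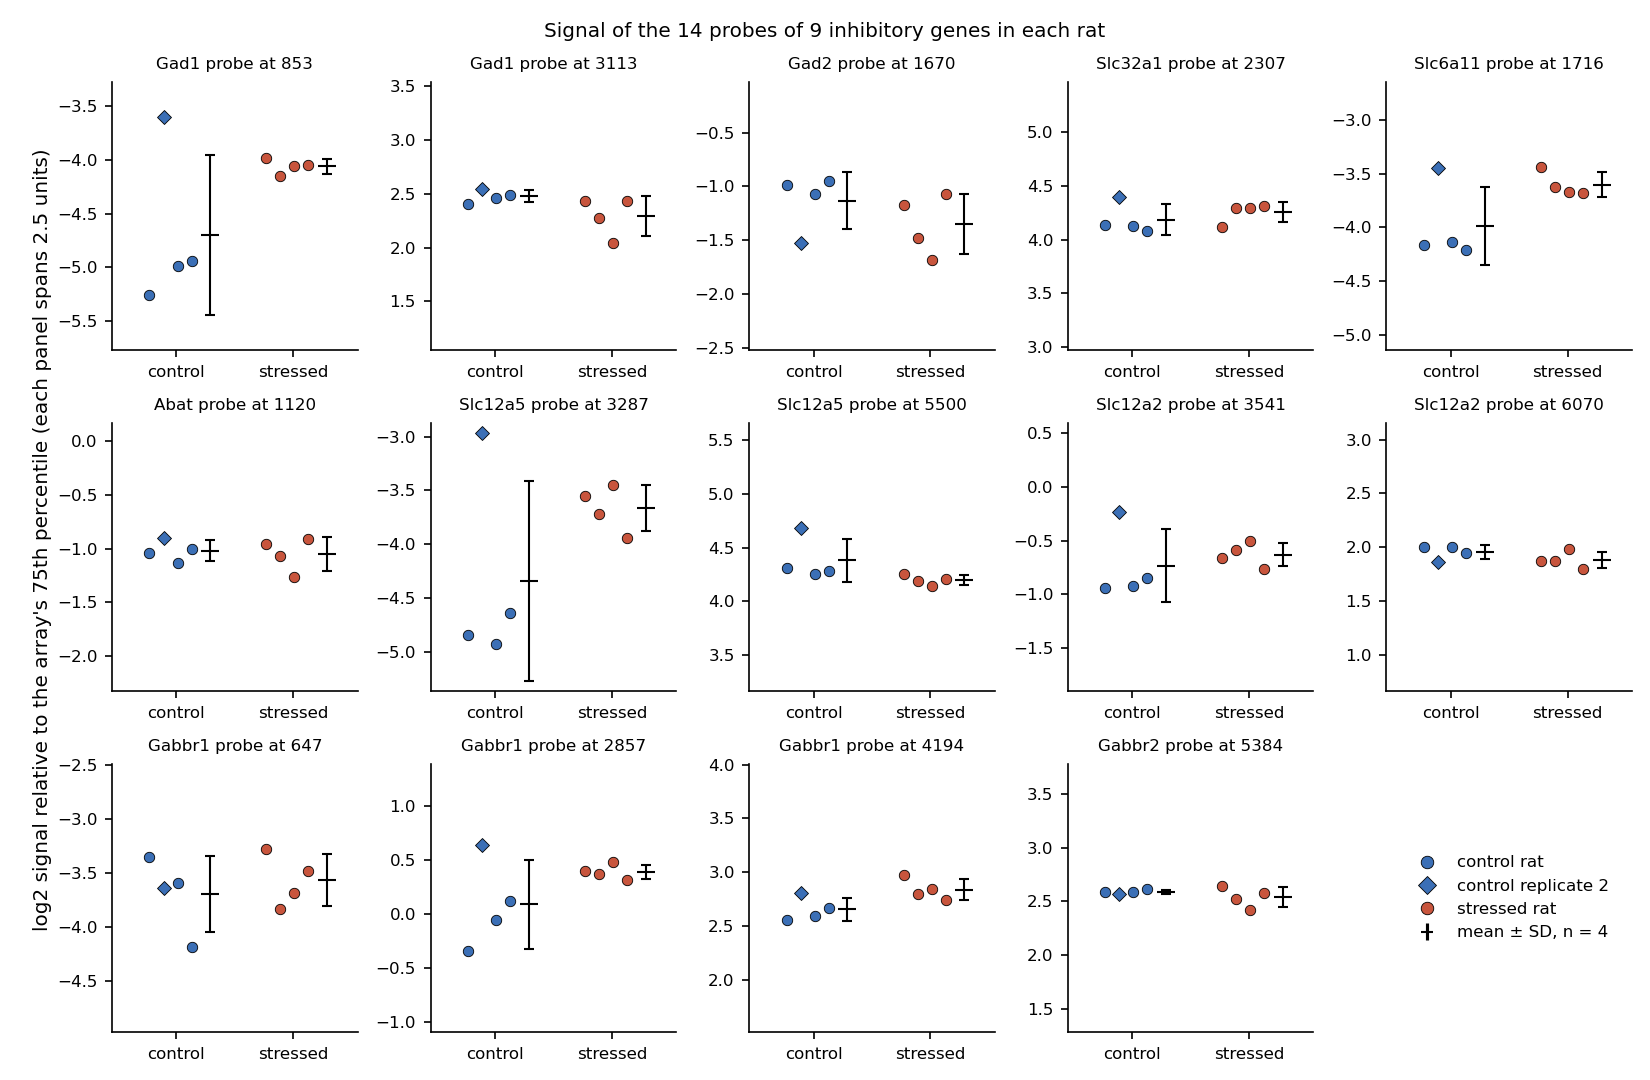
Each panel plots the log2 signal of 1 probe relative to its array's 75th percentile (vertical axis, 2.5 units in every panel) for 4 control and 4 stressed rats, with the mean ± SD beside each group; the diamond is control replicate 2. That diamond is the highest of the 8 points in 8 of the 14 panels, and no panel separates the groups.

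Synthesis was read from 3 probes. At the upstream Gad1 probe (position 853) the control rats measured -5.26, -3.60, -4.98 and -4.94 and the stressed rats -3.98, -4.15, -4.05 and -4.05. The 4 stressed rats lay close together, above control replicates 1, 3 and 4 and below control replicate 2. The difference was 0.64 (SE 0.33), or 1.56-fold higher, with an adjusted p of 0.310 from limma; with normexp background correction it was 0.32.

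The downstream Gad1 probe (position 3113) went the other way. Control rats measured 2.41, 2.55, 2.47 and 2.49 and stressed rats 2.43, 2.28, 2.04 and 2.44. Stressed replicate 3 was the lowest, stressed replicates 2 and 3 lay below every control, and replicates 1 and 4 lay among the controls. The difference was -0.18 (SE 0.10, limma adjusted p = 0.343). The Gad2 probe (position 1670) measured -0.99, -1.53, -1.07 and -0.95 in control rats and -1.17, -1.48, -1.68 and -1.07 in stressed rats, a difference of -0.22 (SE 0.18, limma adjusted p = 0.50). The groups overlapped throughout, with control replicate 2 among the lower values and stressed replicate 3 again the lowest.

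Slc32a1 encodes VGAT, the carrier that loads GABA and glycine into synaptic vesicles. Its probe (position 2307) measured 4.14, 4.40, 4.13 and 4.08 in control rats and 4.12, 4.30, 4.30 and 4.31 in stressed rats. Stressed replicate 1 sat with 3 of the controls and control replicate 2 above all stressed rats. The difference was 0.07 (SE 0.09, limma adjusted p = 0.685), and its 95% interval of -0.15 to 0.28 bounds the change at this probe.

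For clearance, Slc6a11 encodes GAT-3, the GABA transporter best known from astrocytes, and Abat the transaminase that degrades GABA. The Slc6a11 probe measured -4.16, -3.44, -4.13 and -4.21 in control rats and -3.43, -3.63, -3.67 and -3.68 in stressed rats. Control replicates 1, 3 and 4 lay below every stressed rat, and control replicate 2 lay within the stressed range. The difference of 0.38 (SE 0.18) was the lowest in adjusted p of the 14 probes, at 0.264 by limma, and it was 0.24 with normexp background correction and 0.20 with quantile normalization. Abat (position 1120) differed by -0.03 (SE 0.10, limma adjusted p = 0.875), with control rats between -1.13 and -0.90 and stressed rats between -1.26 and -0.91. The stressed range enclosed the control range almost entirely.

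The chloride transporters had an upstream and a downstream probe each. At the upstream Slc12a5 probe (position 3287) control rats measured -4.84, -2.96, -4.93 and -4.64 and stressed rats -3.55, -3.72, -3.45 and -3.94. Control replicate 2 was the highest of all and control replicates 1, 3 and 4 the lowest, with the stressed rats between. The difference was 0.68 (SE 0.42, limma adjusted p = 0.380), and 0.37 with normexp background correction. At the downstream Slc12a5 probe (position 5500, 10 spots per array) control rats measured 4.31, 4.68, 4.26 and 4.28 and stressed rats 4.26, 4.19, 4.15 and 4.21. The stressed rats were on the low side here, and only stressed replicate 1 reached the lowest control. The difference was -0.18 (SE 0.11, limma adjusted p = 0.352, exact permutation p = 0.0571).

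At the upstream Slc12a2 probe (position 3541) control rats measured -0.94, -0.23, -0.92 and -0.85 and stressed rats -0.66, -0.59, -0.51 and -0.76. The order was that of the upstream Slc12a5 probe, with control replicate 2 above and the other controls below all stressed rats. The difference was 0.10 (SE 0.16, limma adjusted p = 0.729). The downstream Slc12a2 probe (position 6070, 10 spots) measured 2.0, 1.86, 2.0 and 1.95 in control rats and 1.87, 1.87, 1.98 and 1.80 in stressed rats, a difference of -0.07 (SE 0.07, limma adjusted p = 0.574). Its 95% interval, -0.23 to 0.09, was among the narrowest of the members, and the groups overlapped.

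Gabbr1, the subunit that binds GABA, had 3 probes. The probe at position 2857 measured -0.34, 0.64, -0.06 and 0.12 in control rats and 0.40, 0.37, 0.48 and 0.32 in stressed rats, a difference of 0.30 (SE 0.19, limma adjusted p = 0.391). The probe at position 4194 measured 2.55, 2.80, 2.60 and 2.66 in control rats and 2.98, 2.79, 2.84 and 2.74 in stressed rats, a difference of 0.18 (SE 0.09, limma adjusted p = 0.269). At both, control replicates 1, 3 and 4 lay below every stressed rat and control replicate 2 did not. The third probe, at position 647 of another Gabbr1 transcript and crossing an exon junction (1263 bases of genome), differed by 0.12 (SE 0.19, limma adjusted p = 0.729), with control rats between -4.19 and -3.35 and stressed rats between -3.83 and -3.28. Gabbr2, the subunit that couples to the G protein, measured 2.59, 2.57, 2.59 and 2.61 in control rats and 2.64, 2.52, 2.42 and 2.58 in stressed rats. Its 4 control rats spanned the smallest range of any member probe, and the difference was -0.05 (SE 0.07, limma adjusted p = 0.714).

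Control replicate 2 decided the calls. With it left out, 6 of the 14 probes were called by limma, all higher in stressed rats: Gad1 at 853 by 1.003, Slc6a11 by 0.57, Slc12a5 at 3287 by 1.14, Slc12a2 at 3541 by 0.27, and Gabbr1 at 2857 by 0.49 and at 4194 by 0.24, with adjusted p between 0.000852 and 0.0457. In that fit 42.4% of all tested probes were called, so a count of 6 of 14 is near the background. The 6 include the upstream probe of all 4 pairs and the downstream probe of Gabbr1 (4194). The downstream probes of Gad1 (-0.16, adjusted p = 0.295), Slc12a5 (-0.08, adjusted p = 0.269) and Slc12a2 (-0.10, adjusted p = 0.242) were not called. Whether upstream probes were called more often over all transcripts was not tested. When limma weighted the arrays by their fit, control replicate 2 had a weight of 0.107, 7 of 14 probes were called, the same 6 and Gad2 (-0.33, adjusted p = 0.0608), and 50.6% of all tested probes were called.

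**Figure D2:**
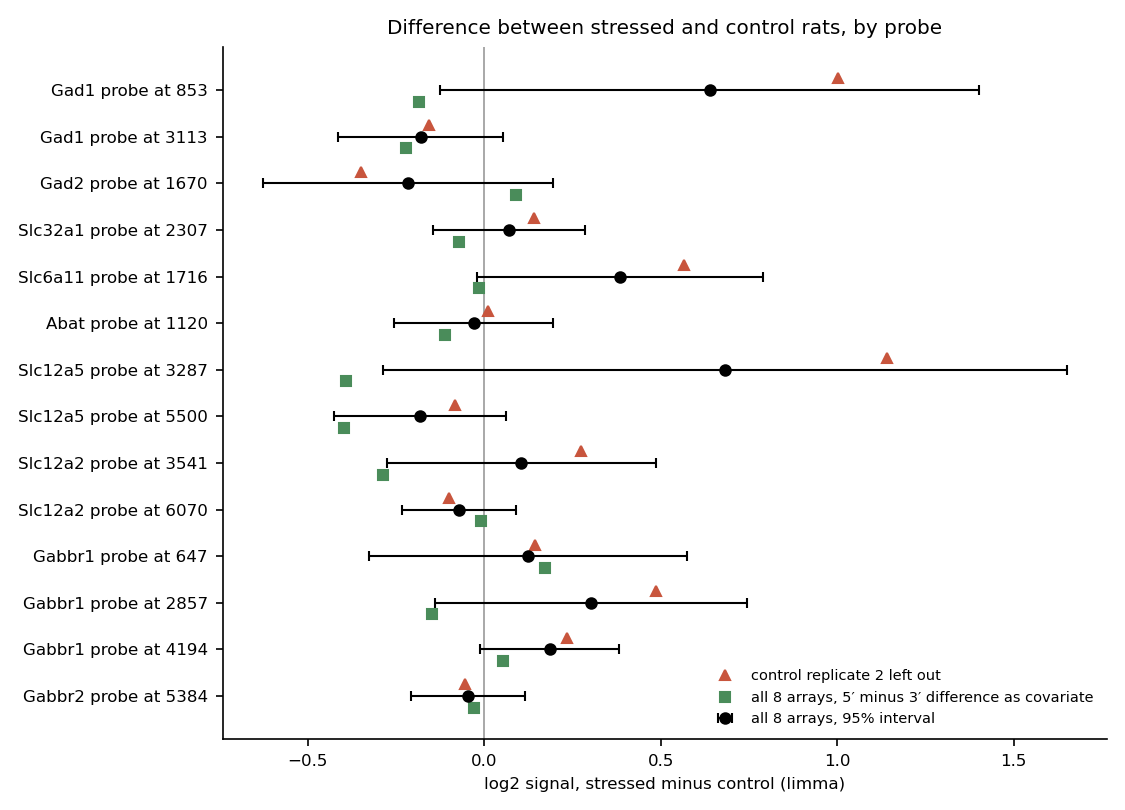
The log2 difference, stressed minus control (horizontal axis), of each of the 14 probes (rows) from limma, with its 95% interval for all 8 arrays (circles), without control replicate 2 (triangles) and with the array's 5′ minus 3′ difference in the fit (squares). Every interval spans 0, and the triangles and squares lie farthest apart for Slc12a5 at 3287, at 1.14 and -0.39.

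The upstream probe, minus the downstream probe of the same transcript in the same array, moved with the array's median over the 1885 transcripts, of which these 4 are a small part. For Slc12a5 this within-transcript value, centred over the arrays, was -0.86, 0.65, -0.89 and -0.63 in control rats and 0.49, 0.39, 0.70 and 0.15 in stressed rats. For Gad1 it was -0.90, 0.62, -0.68 and -0.66 in control rats and 0.35, 0.33, 0.67 and 0.28 in stressed rats. In both genes control replicates 1, 3 and 4 were the low arrays, and control replicate 2 stood with the stressed rats, as in the index over all transcripts. The spread was smaller for Slc12a2 (-0.34 to 0.50) and for Gabbr1 (-0.39 to 0.34), with control replicate 2 the highest array in each. Stressed and control rats differed in it by 0.82 for Gad1, 0.86 for Slc12a5, 0.18 for Slc12a2 and 0.12 for Gabbr1. The groups overlapped in each (exact permutation p = 0.114, 0.114, 0.486 and 0.514, and 0.343 to 0.720 after adjustment over 6 probe pairs).

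**Figure D3:**
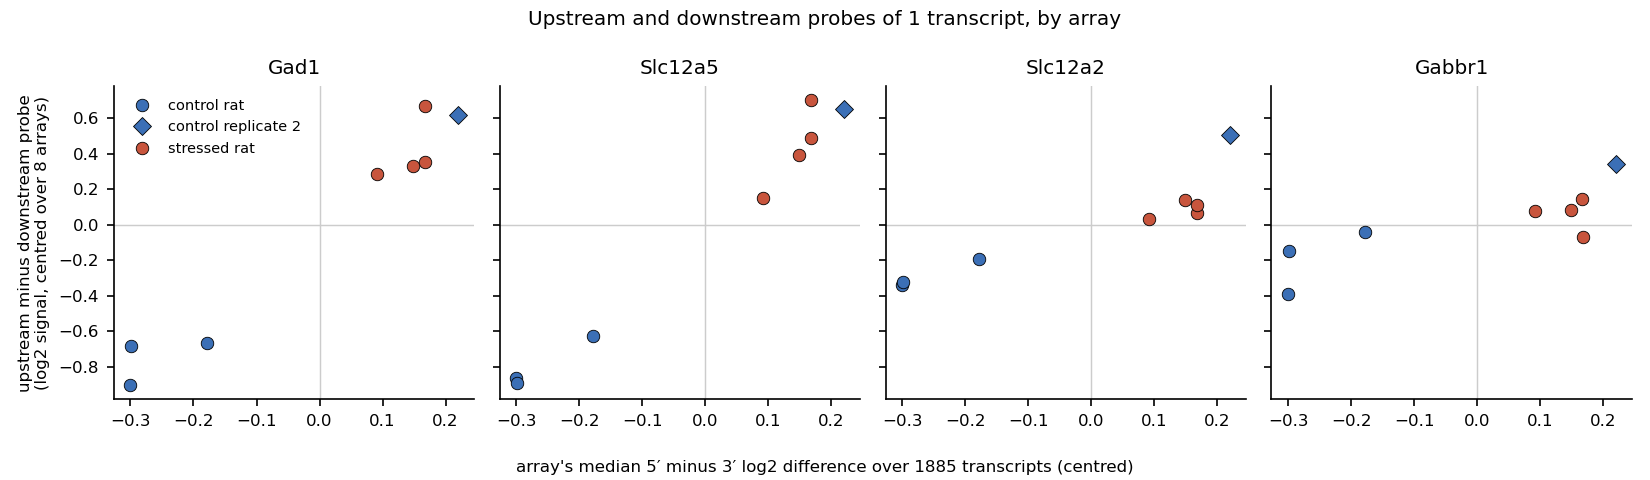
For 4 genes, the upstream minus the downstream probe of 1 transcript (vertical axis, log2, centred over the 8 arrays) is plotted against the median 5′ minus 3′ difference of the array over 1885 transcripts (horizontal axis, log2, centred). Control replicates 1, 3 and 4 (circles on the left, -0.30 to -0.18) lie apart from control replicate 2 (diamond, 0.22) and the stressed rats (0.09 to 0.17) in the same way for Gad1 and Slc12a5.

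When the array's 5′ minus 3′ difference entered the fit as a covariate, the probes of Gad1 no longer opposed each other (-0.19 at 853 and -0.22 at 3113), nor did those of Slc12a5 (-0.39 at 3287 and -0.40 at 5500). In that fit 3 of 14 probes were called by limma, all lower in stressed rats: both Slc12a5 probes (adjusted p = 0.0949 and 0.0479) and Slc12a2 at 3541 (-0.29, adjusted p = 0.0918), beside 10.1% of all tested probes. The covariate rests on control replicate 2, the only control array with a value above 0. Without that array it was -0.30 to -0.18 in control rats and 0.09 to 0.17 in stressed rats, so covariate and group can hardly be told apart. A fit with the covariate and without that array, chosen after seeing the data, called 0 of 14 probes and 0 of all tested probes. Its Slc12a5 values were -0.09 and -0.06, and the 14 differences ranged from -0.46 (Gabbr1 at 2857) to 1.91 (Gabbr1 at 647). That fit cannot show whether a difference is present. How much of the group difference at upstream probes belongs to transcript coverage was not tested beyond these fits.

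A scaling factor that is equal for all probes of an array cancels in differences within it. A difference along the transcript, such as 5′ minus 3′, need not cancel. KCC2 over NKCC1, as Slc12a5 minus Slc12a2 at the brightest probe of each, was 2.32, 2.82, 2.26 and 2.33 in control rats and 2.39, 2.32, 2.17 and 2.41 in stressed rats. The stressed range enclosed every control but replicate 2, and the groups differed by -0.11 (exact permutation p = 0.60, adjusted over 4 pairs 0.80). Without control replicate 2 the difference was 0.02, with the mean of all probes of each gene 0.23, and with the 5′ minus 3′ covariate -0.39. Gad1 minus Gad2 differed by 0.04 (exact permutation p = 0.886, adjusted 0.886), and by 0.45 with the mean of all probes of each gene (exact permutation p = 0.229). With the covariate it differed by -0.31.

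Gabbr1 minus Gabbr2 was -0.04, 0.24, 0.01 and 0.05 in control rats and 0.33, 0.27, 0.42 and 0.16 in stressed rats. Only control replicate 2 reached the stressed range, and the difference was 0.23 (exact permutation p = 0.0571, adjusted over 4 pairs 0.171). Slc6a11 minus Abat was -3.12, -2.54, -3.001 and -3.21 in control rats and -2.48, -2.56, -2.41 and -2.77 in stressed rats, a difference of 0.41 (exact permutation p = 0.0857, adjusted 0.171) that was 0.26 with quantile normalization. Here too control replicate 2 alone lay among the stressed rats. With the 5′ minus 3′ covariate the difference was 0.08 for Gabbr1 minus Gabbr2 and 0.10 for Slc6a11 minus Abat.

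**Figure D4:**
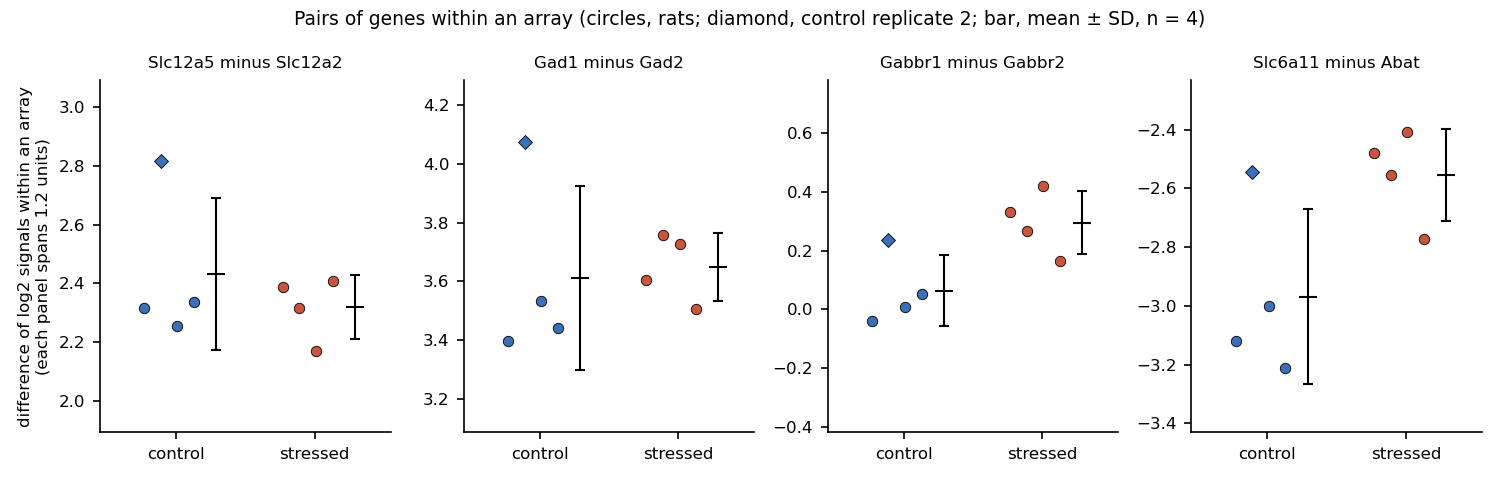
For 4 pairs of genes, the difference of their log2 signals within each array (vertical axis, 1.2 units in every panel) in 4 control and 4 stressed rats, with mean ± SD; the diamond is control replicate 2. Gabbr1 minus Gabbr2 and Slc6a11 minus Abat were higher in stressed rats than in control replicates 1, 3 and 4, and Slc12a5 minus Slc12a2 was not.

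Other genes of the pathway were described from 4 lists, by the brightest tested probe of each gene. Of 13 genes of GABA uptake, breakdown and precursor supply, 0 were called (7 higher, 6 lower, median 0.05). An unadjusted p below 0.05 was reached by 1 of the 13, beside 20.3% of all tested probes. The smallest p values belonged to Slc1a1, the neuronal glutamate carrier EAAC1 (-0.25, limma adjusted p = 0.246), Glul, the glutamine synthetase of astrocytes (0.26, adjusted p = 0.252), and Pdxk, a kinase that makes the cofactor of GAD (0.34, adjusted p = 0.316).

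Of 21 tested chloride transporters and kinases that regulate them, 1 was called, 11 were higher and 10 lower, 7 reached an unadjusted p below 0.05, and the median was 0.01. The called gene was Slc12a7, the extruder KCC4, with -2.33, -2.48, -2.43 and -2.65 in control rats and -2.86, -2.93, -2.82 and -2.82 in stressed rats. All stressed rats lay below all controls, with a difference of -0.39 (SE 0.08, limma adjusted p = 0.0815). The call came from the probe at position 4607, and the dimmer upstream Slc12a7 probe at 3210 differed by 0.16 (SE 0.25, adjusted p = 0.739). Cab39, which activates the kinases acting on KCC2 and NKCC1 (0.29, adjusted p = 0.110), and Slc4a10, a sodium-bicarbonate carrier of neurons (0.50, adjusted p = 0.128), missed the threshold. The dimmer upstream Slc4a10 probe at 3338 differed by 0.23 (limma adjusted p = 0.352).

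In a list of 15 tested genes drawn up for GABA-B auxiliary subunits and effectors, 2 were called, both higher in stressed rats (11 higher and 4 lower in all, 5 at an unadjusted p below 0.05; median 0.08). Gnai1, an inhibitory G protein α subunit, measured -3.40, -3.11, -2.999 and -2.92 in control rats and -2.53, -2.27, -2.24 and -2.61 in stressed rats, a difference of 0.70 (SE 0.13, limma adjusted p = 0.0658). Gprc5b, an orphan receptor that is not itself known as a subunit or effector of the GABA-B receptor, measured 1.97, 1.95, 1.97 and 2.06 in control rats and 2.24, 2.33, 2.33 and 2.29 in stressed rats, a difference of 0.31 (SE 0.06, limma adjusted p = 0.0710). For both, control replicate 2 lay with the other controls and the groups did not overlap, and the differences with the covariate were 0.65 (adjusted p = 0.0988) and 0.33 (adjusted p = 0.0550), whereas Slc12a7 was not called with it (-0.34, adjusted p = 0.115). Counts of 1 of 21 and 2 of 15 stand beside 3.74% of all tested probes, and with any array other than control replicate 2 left out, no gene of the 4 lists was called. The other Gi/o α subunit genes of the list did not follow Gnai1. The brighter Gnai2 differed by -0.17 (limma adjusted p = 0.236), Gnai3 by 0.02 (adjusted p = 0.864) and Gnao1 by -0.21 (adjusted p = 0.556).

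**Figure D5:**
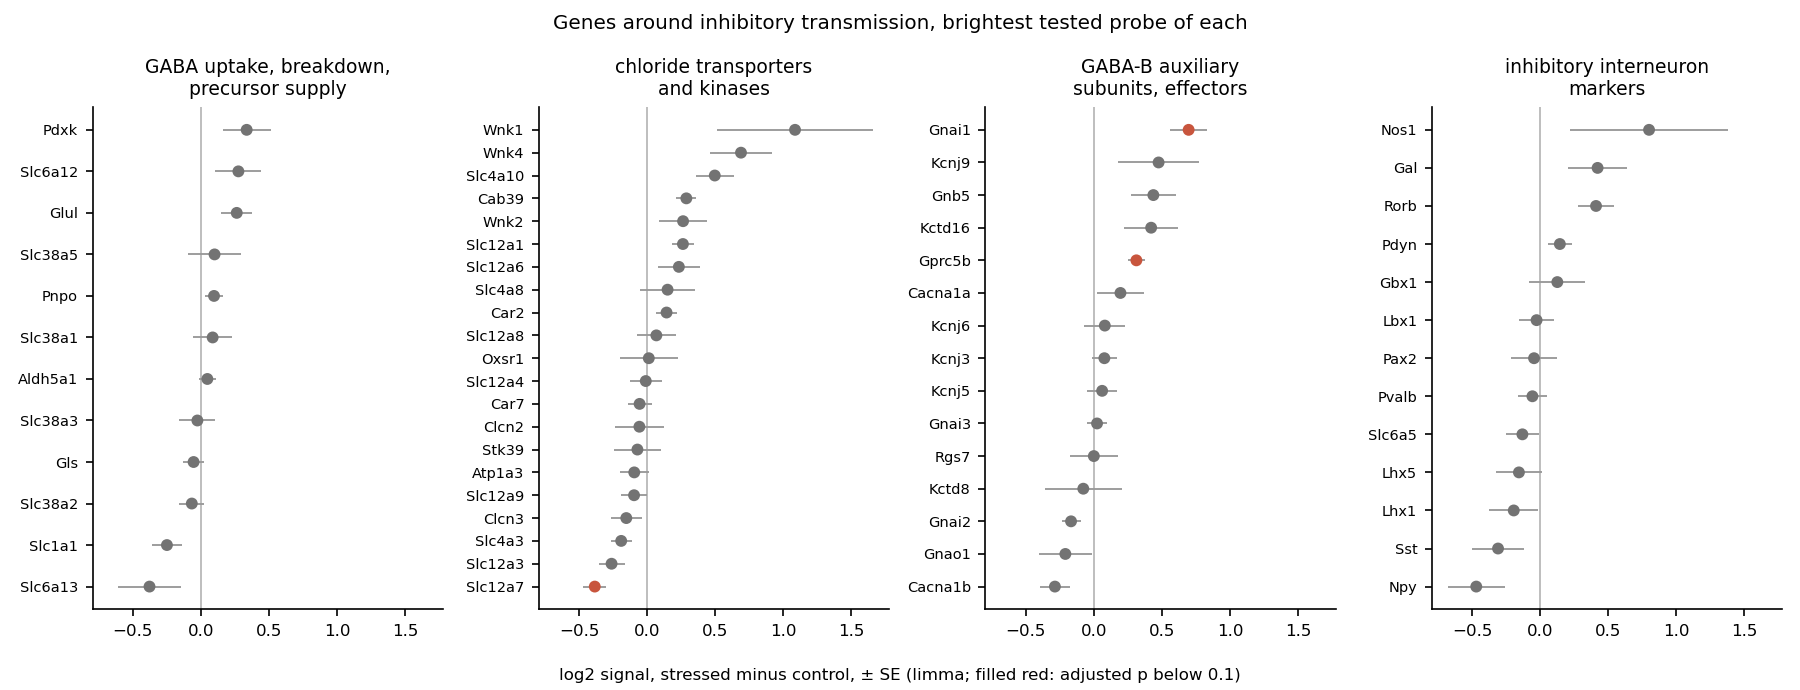
The log2 difference, stressed minus control, ± SE (horizontal axis) of the tested genes in 4 lists around inhibitory transmission, by the brightest probe, with 1 gene of the uptake list not shown; red points have a limma adjusted p below 0.1. These are Slc12a7 (-0.39), Gnai1 (0.70) and Gprc5b (0.31).

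Of 13 tested markers of dorsal horn inhibitory interneurons, 0 were called (5 higher, 8 lower; median -0.05). Rorb, a nuclear receptor of some of these cells, had a difference of 0.41 (limma adjusted p = 0.169), Npy, the neuropeptide Y gene, -0.47 (adjusted p = 0.256) and Gal, the galanin gene, 0.42 (adjusted p = 0.302). The dimmer upstream probes of Npy (279) and Gal (387) differed by -0.32 and 0.23 (limma adjusted p = 0.467 and 0.522). The summed linear level of the 13 markers, in units of the 75th percentile, was 36.2 to 40.4 in control rats and 32.0 to 35.7 in stressed rats. Sst, which also marks excitatory neurons of the dorsal horn, made up 18.6 of the 40.4 units in control replicate 2. Without Sst, left out after seeing the data, control replicate 2 (21.8) lay within the stressed range (21.5 to 23.4). Control replicates 1, 3 and 4 (25.1, 24.1 and 24.4) still lay above it. Npy, among the brightest of the remaining markers, measured 2.44, 2.51, 2.63 and 2.67 in control rats and 2.36, 1.75, 1.67 and 2.58 in stressed rats. The sum without Npy was not examined, so these sums do not show a lower level across the markers as a set. The sum of 4 excitatory neuron markers was lower in stressed rats (9.27 to 12.0 against 13.2 to 13.99), with 0 of 4 called. It was carried by the 2 brightest, Slc17a6 (-0.26, limma adjusted p = 0.174) and Tac1 (-0.51, adjusted p = 0.133). The groups did not overlap at these 2, beside 12.1% of all tested probes. They overlapped at Tlx3 (-0.12) and Lmx1b (0.24). The sum of 5 pan-neuronal markers overlapped (63.0 to 71.8 in stressed rats against 58.1 to 68.9, 0 of 5 called).

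Markers of other cells were summed in the same way. Astrocyte markers summed to 51.2 to 61.4 in control rats, with the top value in control replicate 2, and to 56.9 to 75.3 in stressed rats. Of these 6 markers 0 were called, 4 were higher and 2 lower. Aqp4, by far the brightest, differed by 0.26, and the lower ones were Aldh1l1 (-0.08) and Slc1a3 (-0.20). Gfap had the largest difference of the 6, 0.81 (limma adjusted p = 0.322), and -0.15 with the 5′ minus 3′ covariate. The study reported significantly lower GFAP expression in stressed rats by qRT-PCR, and the reason for the unlike direction was not tested. Oligodendrocyte markers overlapped (227 to 333 against 247 to 342; 1 of 6 called, Mog at 0.90, limma adjusted p = 0.0721), as did microglia (6.55 to 8.37 against 6.64 to 8.42, 0 of 6 called), endothelium (2.64 to 3.56 against 3.08 to 3.79; 1 of 4 called, Pecam1 at 0.40, limma adjusted p = 0.0927), motor neurons (1.48 to 2.24 against 1.14 to 1.80, 0 of 3 called), red blood cells (53.6 to 81.7 against 45.1 to 98.7, 0 of 3 called) and meninges and fibroblasts (1.10 to 4.55 against 1.14 to 3.43, 0 of 4 called). Schwann cell markers, which mark spinal roots, varied most, from 0.294 to 53.05 in control rats and from 0.278 to 13.3 in stressed rats (0 of 3 called). Every tested marker was well above background on all 8 arrays except Nos1, which was on 5. Their part in the members' values was not tested.

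The lumbosacral identity of the tissue was checked with Hoxd10 and Hoxa10, which are expressed in the lumbar cord and below. Hoxa10 measured 0.36, 0.33, 0.30 and 0.28 in control rats and 0.52, -0.33, -3.46 and 0.44 in stressed rats. Hoxd10 was likewise lowest in stressed replicate 3, at 0.44, beside 1.43 to 2.27 in the other arrays. Stressed replicate 3 was also the lowest of the 8 arrays at 5 of the 14 member probes (Gad1 at 3113, Gad2, Abat, Slc12a5 at 5500 and Gabbr2), and at Npy (1.67) and Sst (3.22), the somatostatin gene. Without it the differences were -0.09 for Gad1 at 3113, -0.11 for Gad2, 0.04 for Abat, -0.17 for Slc12a5 at 5500 and -0.01 for Gabbr2. Leaving out the lowest stressed value must raise a difference, so the direction of these shifts was fixed in advance. Whether the cord level sampled differed in stressed replicate 3 was not tested.

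Correlations between members across the 8 arrays are given as a description over points that share group, slide and transcript coverage. At the brightest probe of each, the highest were Slc6a11 with Gabbr1 (r = 0.89), Gad1 with Gabbr2 (0.87) and Abat (0.80), and Gad2 with Gabbr2 (0.78). The lowest were Gad2 with Slc32a1 (-0.75) and Slc12a2 with Abat (-0.71) and Slc6a11 (-0.70). Stressed replicate 3 was the lowest array at Gad1, Gad2, Abat and Gabbr2. Slc12a5 and Slc12a2 did not follow each other (r = -0.17). Among 13504 gene symbols the patterns most like Slc12a5 were those of Dab2ip (r = 0.99), Sf4 (r = 0.98) and Gabpb1 (r = 0.98), and 149 symbols had r above 0.9. The Slc12a5 probe used, at 5500, measured 4.68 in control replicate 2 and 4.15 to 4.31 in the other arrays. That array therefore weighs heavily in these r values, which were not recomputed without it. For Slc12a2 they were Rps20, Acsl1 and Ankrd24 (r = 0.98 for each), and 36 symbols had r above 0.9.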

How the data were processed

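RNA of lumbar L6S1 cord (RNeasy mini kit) from 4 stressed and 4 control rats was labelled with Cy3 and hybridised to Agilent SurePrint G3 rat arrays, 1 per rat. The authors deposited the Agilent Feature Extraction 10.7.3.1 output of each array and a value table; per the file headers the processed signal is a background-subtracted, detrended intensity, and 100% of the table values equal it within rounding, with no normalization between arrays found. The methods name dChip, which was not used here.

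The log2 processed signal minus the array's 75th percentile was averaged over the spots of a probe, without control spots (4259) and outlier-flagged spots. Probes well above background (at least 0.5 of their spots) on at least 4 of 8 arrays, without regard to group, were tested (23678) with limma 3.58.1 in R 4.3.3 (lmFit and eBayes), no covariate and Benjamini-Hochberg adjustment over all tested probes; the fit was tested on simulated data. Single values were compared with two-sided exact permutation tests over 70 choices of arrays. The number of arrays limits the precision.

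All member probes are named. Of each pathway list, each gene called at FDR <0.1, or otherwise the 3 with the smallest p, is named, with the brightest tested probe standing for a gene. For Slc12a5 and Slc12a2 the 3 symbols of highest Pearson r are named. Cab39, Slc4a10, Gnai2, Gnai3, Gnao1, Sst, Nos1, Slc17a6, Tac1, Tlx3, Lmx1b, Aqp4, Gfap, Aldh1l1, Slc1a3, Mog, Pecam1, Hoxa10 and Hoxd10 were named after their values were seen. Members, lists and tests were chosen with earlier results of these data known. The values of 1 gene of the uptake list are not reported here. The array carried no probe named Ca2, Ca7, Kctd12, Tfap2b, Rbfox3, Mnx1, Hoxc10 or Hoxc9, and Wnk3 was not well above background. Alternatives were normexp background correction (offset 50), quantile normalization, the authors' value table, no filter on dim probes or one requiring all 8 arrays, robust estimation with a variance trend, array weights, a replicate block, 1 probe per symbol, a 5′ minus 3′ covariate and leaving out each array. The miRNA arrays were not analysed here.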

Additional observations from a re-analysis of the deposited data

Results flagged for a closer look

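In groups of 4, a value was picked out when its gap to the nearest other value took up an unusually large share of the group's range, a criterion that chance meets in about 1 group in 20; 36 groups were examined. Control replicate 2 was picked out at Slc6a11 (share 0.898), Slc12a5 at 3287 (0.853), Slc12a5 at 5500 (0.862) and Slc12a2 at 3541 (0.872), and for Slc12a5 minus Slc12a2 (0.860), above the other controls each time. Stressed replicate 1 was picked out at Slc32a1 (0.930), below the other stressed rats.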

How the results depend on the processing

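Of the 14 member probes, 0 were called with all 8 arrays under the settings other than array weights (7 called) and the 5′ minus 3′ covariate (3 called); leaving out each array in turn gave 0 to 6, with 6 only without control replicate 2. Over all probes the 885 calls became 215 with normexp, 3010 without a filter, 11983 with array weights, 2390 with the covariate, 0 to 10036 with an array left out, and 0 with the covariate and without control replicate 2, which was chosen after seeing the data. In that last fit covariate and group can hardly be told apart, so its lack of calls carries no information on the difference. Replicate numbers do not pair the rats (correlations of -0.09 to 0.31 between deviations of same-numbered arrays); with a replicate block 0 member probes and 0 of all probes were called. Pathway-list calls (3) became 1 with normexp, 32 with array weights, 0 with the block, 11 with the covariate and 0 to 29 with an array left out, and marker calls (2) became 0, 20, 0, 1 and 0 to 15.

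Signs turned with the covariate for Gad1 at 853 (-0.19), Gad2 (0.090), Slc32a1 (-0.072), Slc6a11 (-0.015), Slc12a5 at 3287 (-0.39), Slc12a2 at 3541 (-0.29) and Gabbr1 at 2857 (-0.15). With the covariate and without control replicate 2 they turned for Gad1 at 3113 (0.019), Gad2 (0.028), Abat (0.10), Slc12a5 at 3287 (-0.085), Slc12a2 at 3541 (-0.20), and Gabbr1 at 2857 (-0.46) and 4194 (-0.21), with no adjusted p below 0.1. With normexp the upstream values of Gad1 (0.32) and Slc12a5 (0.37) and that of Slc6a11 (0.24), and with quantile normalization that of Slc6a11 (0.20), were over 1.5 times smaller. Gabbr1 at 647 was -0.032 with quantile normalization and -0.041 to 0.24 with an array left out, and Abat was 0.032 with array weights and -0.076 to 0.040 with an array left out. Of the pairs, Slc12a5 minus Slc12a2 was 0.23 with all probes, -0.39 with the covariate and -0.17 to 0.018 with an array left out. With the covariate and with an array left out, in this order, Gad1 minus Gad2 was -0.31 and -0.034 to 0.19, Gabbr1 minus Gabbr2 0.082 and 0.19 to 0.29, and Slc6a11 minus Abat 0.10 and 0.33 to 0.56, with its lowest exact permutation p, 0.0286, without control replicate 2. The causes were not tested.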
